A study of Mus musculus with 40 samples.

Results

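The 8 genes described here encode subunits of the GABA-A receptor in the mouse: the alpha subunits Gabra2, Gabra3, Gabra4, Gabra5 and Gabra6, the gamma subunits Gabrg1 and Gabrg3, and the delta subunit Gabrd. They were chosen by name, with earlier results of these data known, from the 40213 gene symbols of the count files. All 8 were followed in all 40 RNA-seq libraries. The libraries came from the midbrain and the spinal cord of male C57BL/6N mice aged 8 weeks, with 5 groups of 4 libraries in each tissue. Con mice received saline, with saline also injected at the acupoint GB34. MPTP-Veh mice received MPTP, a toxin that damages dopamine neurons, at 20 mg/kg every 2 h for 4 injections, and saline at GB34. MPTP-SU mice received the same MPTP and then SUEHP, a herbal extract used as pharmacopuncture at GB34, in 4 injections that began a week after the toxin. MPTP-SU+S mice also received the CB1 antagonist SR141716A (spelled SR141714A in the sample labels) at 3 mg/kg, and MPTP-SU+T mice the PPARγ inhibitor T0070907 at 5 mg/kg, both intraperitoneally before SUEHP. All groups other than Con therefore shared the MPTP exposure. Neither the exact block of midbrain nor the level of the cord was given in the sources used here, and no label ties the 4 libraries of a group to separate mice, so the p-values below measure the spread between these libraries.

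GABA-A receptors are chloride channels built from 5 subunits, and they carry most fast inhibition in the brain. The common synaptic receptor holds alpha, beta and gamma subunits, and the alpha subunit largely sets its kinetics and pharmacology. Receptors with alpha4 or alpha6 together with delta sit outside synapses and carry tonic inhibition, with alpha4 and delta known for the thalamus and dentate gyrus and alpha6 for cerebellar granule cells. Alpha2 and alpha3 are known for inhibition in the spinal dorsal horn, and alpha5 is best known from the hippocampus. Gamma1 and gamma3 are the less common gamma subunits.

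The midbrain libraries held 11958200 to 16639823 counts each, and the cord libraries 14642808 to 16615378. The tissue labels were borne out by marker genes: the summed level of 5 Hox genes was 393 to 496 CPM (counts scaled to library size) in the cord and at most 1.03 CPM in the midbrain, where Hoxd10 had no count in any library. The dopamine transporter gene Slc6a3 reached 17.7 to 129 CPM in the midbrain and at most 0.302 CPM in the cord. The 6 midbrain markers, Slc6a3 among them, summed to 104 to 331 CPM in the midbrain and 11.3 to 16.5 CPM in the cord. Of the 6, Nr4a2 (7.19 to 40.6 and 4.87 to 9.16 CPM) and Tph2 (0.507 to 109 and 0.181 to 0.754 CPM) overlapped between the tissues. The midbrain library MPTP-Veh replicate 4 stood apart. Mitochondrially encoded genes took 1.35% of its counts against 9.92% to 17.5% in the other midbrain libraries, and the summed CPM of 5 oligodendrocyte markers was 33000 against 7980 to 11700. The edgeR differences of the members within the midbrain and between the tissues that include this library are given with and without it. Counts of members by unadjusted p and some differences of effects are given with it only.

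Gabra2 and Gabra4 lie in the cluster of GABA-A genes on chromosome 5, and they differed in opposite directions between the tissues, so their upstream sequences are shown. Both are RefSeq windows on the minus strand of GRCm38.p6, from 250 to 56 bases before the gene start, at chr5:71095905-71096099 for Gabra2 and chr5:71658364-71658558 for Gabra4. Capitals mark the GC box, GGGCGG on either strand.
Gabra2: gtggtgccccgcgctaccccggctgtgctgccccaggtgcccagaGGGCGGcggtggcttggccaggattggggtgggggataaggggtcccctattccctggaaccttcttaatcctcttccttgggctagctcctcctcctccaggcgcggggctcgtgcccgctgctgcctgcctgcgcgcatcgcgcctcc
Gabra4: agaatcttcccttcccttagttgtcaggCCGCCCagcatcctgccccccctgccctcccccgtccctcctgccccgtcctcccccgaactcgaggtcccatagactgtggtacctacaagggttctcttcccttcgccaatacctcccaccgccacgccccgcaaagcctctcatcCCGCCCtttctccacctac
The Gabra2 window held 1 GC box and the Gabra4 window 2, and 23.8% of 32851 windows of the same span held at least 1. Each window also held 1 CCAAT (27.6% of windows), and on either strand neither held a TATA box (TATAAA, in 8.95% of windows), an E-box (CACGTG, 4.17%), a cyclic AMP response element (TGACGTCA, 0.77%) or an EGR site (GCGNGGGCG, 2.85%). G and C made up 69.7% of the Gabra2 window and 63.6% of the Gabra4 window, against a median of 51.3%. These matches describe the letters only. Of the 8 members, 7 were in the RefSeq table, and Gabrd was not.

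The widest differences were between the tissues. Averaged over the 5 groups, Gabrd was 5.18 ± 0.345 (SE) higher in the midbrain on the log2 scale and Gabra4 2.26 ± 0.204 higher, whereas Gabra2 was 0.88 ± 0.0861 higher in the spinal cord. These 3 of the 7 members tested were called, a call being an adjusted p below 0.05 with a fold change above 1.5 (edgeR quasi-likelihood test, Benjamini-Hochberg adjustment over all genes). The share called among all 17426 genes tested was 22%.

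Gabrd, the subunit of extrasynaptic receptors, ranged from 3.5 to 55.3 CPM with a median of 10.4 CPM in the 20 midbrain libraries. In the 20 spinal cord libraries it ranged from 0 to 0.681 CPM, which is at most 11 counts. The tissues did not overlap (adjusted p = 2.33e-15), as was true of 9.08% of all genes. Gabra4, the usual partner of delta in the forebrain, ranged from 7.75 to 238 CPM with a median of 77.7 CPM in the midbrain and from 15.8 to 22.2 CPM in the cord (adjusted p = 6.67e-12). A single midbrain library, MPTP-Veh replicate 4, fell below the cord, and the lowest of the other 19 was 31.5 CPM. Gabra2 ranged from 91.6 to 302 CPM with a median of 120 CPM in the midbrain and from 195 to 290 CPM with a median of 239 CPM in the cord, which is 1.84-fold higher in the cord (adjusted p = 4.98e-11). Here too the overlap came from MPTP-Veh replicate 4, at 302 CPM, since the other midbrain libraries reached no more than 184 CPM.

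The other 4 members tested passed the adjusted p without reaching 1.5-fold. Gabra3 differed by -0.30 ± 0.0492 (adjusted p = 2.94e-06) and Gabra5 by -0.44 ± 0.132 (adjusted p = 0.0044) on the log2 scale of midbrain minus cord. Gabrg1 differed by 0.29 ± 0.0848 (adjusted p = 0.00289) and Gabrg3 by 0.38 ± 0.0559 (adjusted p = 2.97e-07). All 4 overlapped between the tissues. Without MPTP-Veh replicate 4 of the midbrain the same 3 members were called, Gabrd at 5.20, Gabra4 at 2.32 and Gabra2 at -0.96, and Gabra3 (-0.28), Gabra5 (-0.37), Gabrg1 (0.33) and Gabrg3 (0.41) stayed under 1.5-fold.

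Gabra6, the cerebellar granule cell subunit, was too low for the test. It had 0 counts in 4 of 20 midbrain and 12 of 20 spinal cord libraries, and a count of 0 allows up to 3 counts, or 0.171 to 0.28 CPM in the midbrain. The highest midbrain value was 60 counts, 5.6 CPM, in MPTP-Veh replicate 4, and the next was 21 counts. No spinal cord library held more than 4.

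Per kilobase of the longest coding transcript, which lets genes be compared, the order in the midbrain was Gabra3 at 28.9 ± 4.2, Gabra4 at 25.2 ± 17.2, Gabra2 at 22.3 ± 7.93, Gabra5 at 17 ± 6.77, Gabrg1 at 10.8 ± 2.84, Gabrd at 8.81 ± 7.86, Gabrg3 at 1.96 ± 0.339 and Gabra6 at 0.214 ± 0.5 CPM per kb (SD, n = 20). Neighbours in this order down to Gabrg3 differed by less than the larger of their SDs. In the cord the order was Gabra2 at 40.3 ± 4.17, Gabra3 at 35.4 ± 2.11, Gabra5 at 22.6 ± 1.96, Gabrg1 at 8.73 ± 1.19, Gabra4 at 4.74 ± 0.426, Gabrg3 at 1.49 ± 0.164, Gabrd at 0.216 ± 0.0844 and Gabra6 at 0.0173 ± 0.0269 CPM per kb. Neighbours in the cord differed by more than the larger of their SDs. Gabra4 thus stood beside Gabra3 and Gabra2 in the midbrain and below Gabra5 and Gabrg1 in the cord.

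**Figure D1:**
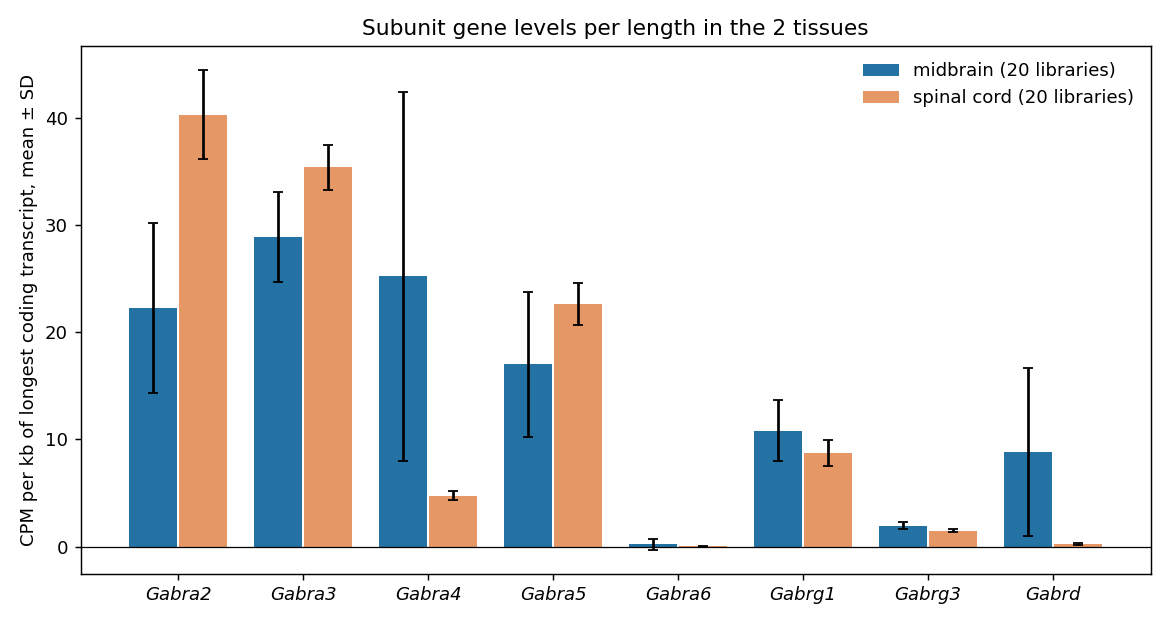
Level of each subunit gene per length (CPM per kb of the longest coding transcript) in the midbrain and spinal cord, with bars for the mean and lines for the SD of 20 libraries. Gabra4 and Gabrd stand far higher in the midbrain (25.2 and 8.81) than in the cord (4.74 and 0.216), with wide error bars there, and Gabra2 stands higher in the cord (40.3 against 22.3).

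Among other subunits of the family, the beta subunit Gabrb2 was higher in the midbrain by 2.34 on the log2 scale, and the rho subunits Gabrr1 and Gabrr2 by 3.21 and 1.73. All were called, as were 22% of all genes. Gabrb2 averaged 343 CPM in the midbrain and 67.3 CPM in the cord. The rho genes were low in both tissues, with means of 0.719 and 0.0712 CPM for Gabrr1 and 2.56 and 0.769 CPM for Gabrr2. GABA neuron markers (Gad1, Gad2 and Slc32a1) summed to 440 to 955 CPM in the midbrain and 313 to 393 CPM in the cord. Medians in the midbrain and the cord were 390 and 143 CPM for Gad1 and 282 and 125 CPM for Gad2. For Slc32a1 they were closer, at 99.6 and 88 CPM. In whole tissue, more cells of a type and more RNA per cell cannot be told apart.

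Whether MPTP and SUEHP moved these genes in the midbrain was asked of 7 members, as Gabra6 did not pass the count filter. Between MPTP-SU and MPTP-Veh, Gabra4 rose 4.06-fold and was the 1 member called. Gabrd was 4.18-fold higher on average but missed the adjusted threshold. The call for Gabra4 rested on some of the libraries, as set out next. Among all 16629 genes tested in this comparison 13.5% were called, 4.35% higher and 9.1% lower, so a count of 1 of 7 lies near the background. At an unadjusted p below 0.05 in edgeR stood 5 of 7 members, against 39.8% of all genes.

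Gabra4 stood at 51.2, 105, 76.4 and 51.6 CPM in Con, at 31.5, 79.1, 50.1 and 7.75 CPM in MPTP-Veh and at 66.8, 224, 228 and 168 CPM in MPTP-SU. It stood at 39.8, 74.9, 117 and 191 CPM in MPTP-SU+S and at 99.2, 129, 43.5 and 238 CPM in MPTP-SU+T. Of the MPTP-SU libraries 3 were above every MPTP-Veh library, and replicate 1 fell within the MPTP-Veh range, so the groups overlapped. The difference was 2.02 ± 0.603 (log2 fold change ± SE, adjusted p = 0.0297, edgeR), with means of 172 ± 75.1 and 42.1 ± 30.1 CPM (SD, n = 4). The exact two-sided permutation test on CPM gave p = 0.0571, where 0.0286 is the smallest p that 4 against 4 allow. Without MPTP-Veh replicate 4 the difference was 1.68 (adjusted p = 0.0471), and the share of all genes called fell to 3.4%. The call was lost without MPTP-SU replicate 2 (1.87, adjusted p = 0.077), without MPTP-SU replicate 3 (1.86, adjusted p = 0.0662) and in a fit of these 8 libraries alone (2.01, adjusted p = 0.223).

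Gabrd stood at 10.6, 18.4, 8.31 and 5.89 CPM in Con, at 3.5, 13.9, 5.2 and 5.51 CPM in MPTP-Veh and at 5.38, 30.1, 47.3 and 36 CPM in MPTP-SU. It stood at 5.96, 8.26, 16.4 and 30.1 CPM in MPTP-SU+S and at 10.2, 17.9, 4.39 and 55.3 CPM in MPTP-SU+T. As for Gabra4, replicate 1 was the low library of MPTP-SU and the other 3 were above every MPTP-Veh library. The difference was 2.06 ± 0.727 (adjusted p = 0.0517, edgeR, exact permutation p = 0.0857). Without MPTP-Veh replicate 4 it was 1.97 (adjusted p = 0.103), whereas DESeq2 gave 2.06 with an adjusted p of 0.025 and called the gene.

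Gabrg3 was the member whose groups did not overlap, which held for 21.8% of all genes in this comparison. It stood at 16.8, 16.1, 15.9 and 10.6 CPM in MPTP-Veh and at 23.5, 21, 18.9 and 19.4 CPM in MPTP-SU. The difference passed the adjusted p, as did 20.1% of all genes, at less than 1.5-fold (0.47 ± 0.139, adjusted p = 0.0285, exact permutation p = 0.0286). It was 0.35 without MPTP-Veh replicate 4 (adjusted p = 0.0473). Con libraries stood at 17.2, 15.6, 20 and 18.7 CPM and overlapped both groups.

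Gabrg1 and Gabra2 missed the threshold. Gabrg1 stood at 44.3, 42.4, 46.4 and 19.4 CPM in MPTP-Veh and at 77.3, 67.7, 45.9 and 43.4 CPM in MPTP-SU (0.61 ± 0.242, adjusted p = 0.0731), and at 0.40 without MPTP-Veh replicate 4 (adjusted p = 0.192). Gabra2 stood at 134, 105, 151 and 302 CPM in MPTP-Veh and at 130, 128, 91.6 and 98.9 CPM in MPTP-SU. Its difference of -0.63 ± 0.247 (adjusted p = 0.072) was -0.21 without MPTP-Veh replicate 4 (adjusted p = 0.441) and -1.52 (adjusted p = 0.0162, called) once the trend with GC content and transcript length was removed per library. DESeq2 called both genes, at 0.61 (adjusted p = 0.048) and -0.65 (adjusted p = 0.0462). Gabra3 differed by 0.17 ± 0.145 (adjusted p = 0.378), and by 0.11 without MPTP-Veh replicate 4 (adjusted p = 0.648). Gabra5 differed by 0.32 ± 0.406 (adjusted p = 0.568), and by -0.01 without that library (adjusted p = 0.986).

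**Figure D2:**
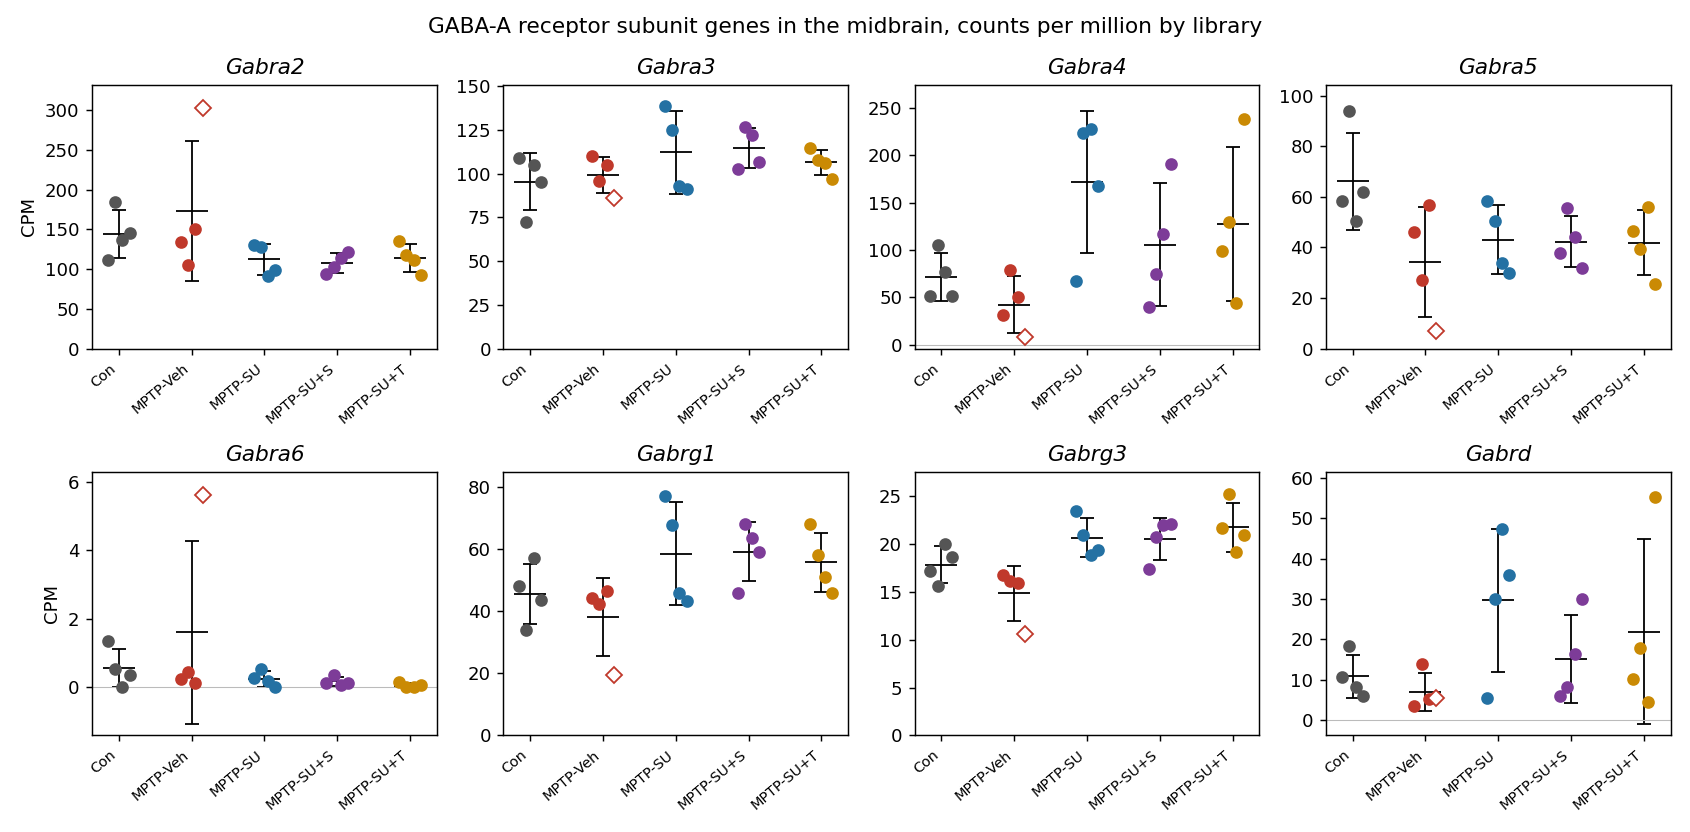
CPM of the 8 subunit genes in the 20 midbrain libraries by group, with points for libraries and lines for the group mean ± SD, and the open diamond for MPTP-Veh replicate 4. Gabra4 and Gabrd share a pattern of wide groups with 3 high MPTP-SU libraries (168 to 228 and 30.1 to 47.3 CPM), and the diamond is the highest point for Gabra2 (302 CPM) and the lowest for Gabra4 (7.75 CPM), Gabra5, Gabrg1 and Gabrg3.

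Thalamus markers moved with Gabra4 and Gabrd. The summed level of 8 thalamus marker genes, all of them with counts in every midbrain library, was 111 to 378 CPM in Con, 102 to 360 in MPTP-Veh, 171 to 921 in MPTP-SU, 141 to 669 in MPTP-SU+S and 123 to 1100 in MPTP-SU+T. In MPTP-SU it was 171 CPM in replicate 1 and 672, 921 and 777 CPM in replicates 2 to 4, and replicate 1 was also the lowest library of the group for both subunits. In MPTP-SU+T replicate 4 held 1100 CPM of the markers with 238 CPM of Gabra4 and 55.3 CPM of Gabrd, and replicate 3 held 123 CPM with 43.5 and 4.39 CPM. Between MPTP-SU and MPTP-Veh all 8 markers had a positive log2 difference, with a median of 1.41. Of the 8, 1 was called, Slitrk6 at 1.55, against 13.5% of all genes. MPTP-Veh replicate 4 was the lowest midbrain library for Prkcd, Synpo2, Rgs16, Slitrk6, Lhx9 and Gbx2, though not for Tnnt1 or Ramp3. Marker differences without that library are not given here. Prkcd had the widest range of the 8 (11.1 to 649 CPM), ahead of Synpo2 (11.6 to 154 CPM), and so weighs most in their sum. No correlation of the sum with either subunit was computed. The part of the 8 markers in the Gabra4 result was not tested. In the cord the same markers summed to 40.3 to 50.1 CPM. Of 8 cerebellar granule cell markers 7 had counts in every midbrain library, and the 8 summed to 92 to 216 CPM in MPTP-Veh and 164 to 358 CPM in MPTP-SU. By median over the midbrain libraries Zic1 (89.6 CPM), Etv1 (71.7) and Zic2 (29.3) were the highest, then Pax6 (11.8) and Neurod1 (6.15). Cbln3 (1.01), Fat2 (0.712) and Crtam (0.127) were low, and Fat2 was highest in MPTP-Veh replicate 4 (5.51 CPM). The sum therefore says little about granule cells.

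**Figure D3:**
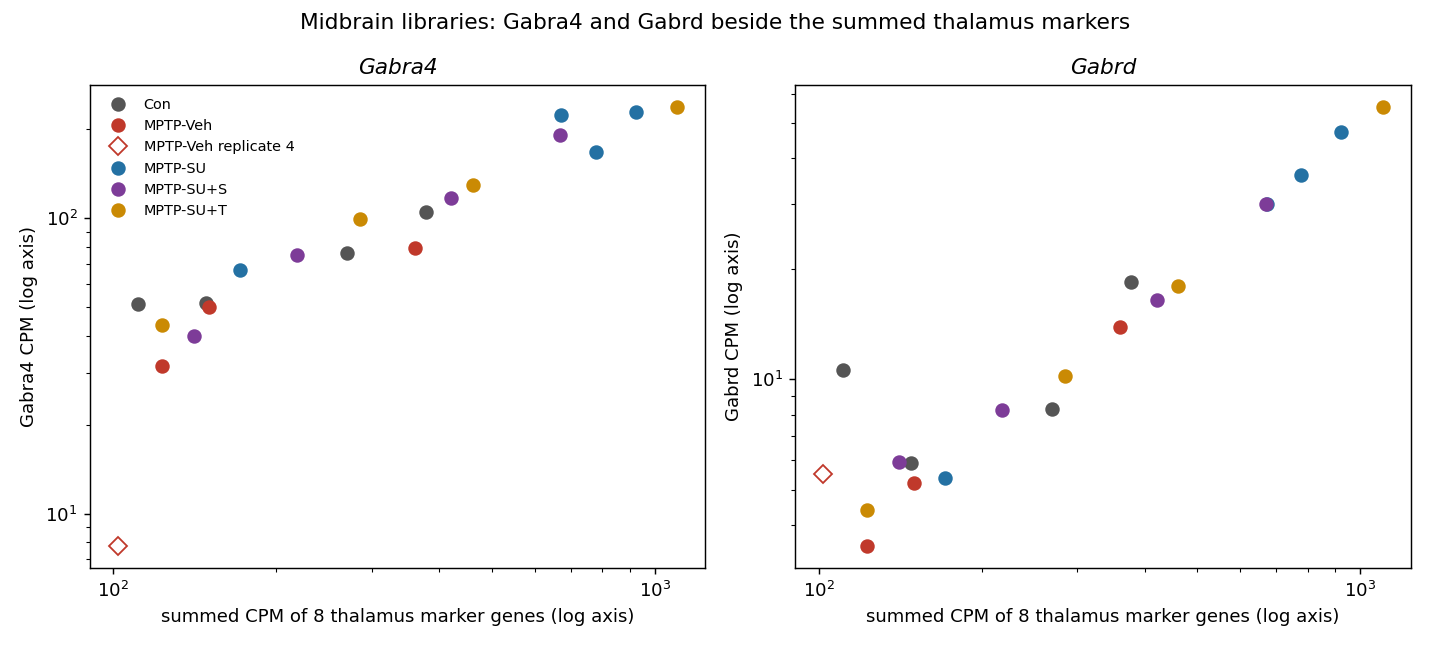
Gabra4 (left) and Gabrd (right) CPM in each midbrain library against the summed CPM of 8 thalamus marker genes, both axes logarithmic, coloured by group. Libraries of all 5 groups lie along 1 rising band that ends with MPTP-SU+T replicate 4 (1100 CPM of markers) at the upper right, and MPTP-Veh replicate 4 lies below the band for Gabra4.

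The 3 highest correlations among the members across the midbrain libraries joined Gabra4 with Gabrd, and Gabrg1 with both Gabra3 and Gabrg3. Over the 20 libraries log2 CPM of Gabra4 and Gabrd gave Pearson's r = 0.841 and Spearman's rho = 0.922 (permutation p = 1e-05 for each, the smallest the permutations can give, adjusted p = 0.00018 over 36 relations in both tissues). The r was 0.779 within groups, 0.952 without MPTP-Veh replicate 4 and 0.945 without the 2 libraries farthest from the Gabra4 median. Gabra3 and Gabrg1 gave r = 0.81 and rho = 0.89 (permutation p = 4e-05 and 1e-05, adjusted p = 0.00048 and 0.00018), with r = 0.831 within groups, 0.905 without MPTP-Veh replicate 4 and 0.801 without the 2 farthest libraries. Gabrg1 and Gabrg3 gave r = 0.897 and rho = 0.794 (permutation p = 1e-05 and 4e-05, adjusted p = 0.00018 and 0.00036), with r = 0.867 within groups, 0.789 without MPTP-Veh replicate 4 and 0.758 without the 2 farthest libraries. Next by r came Gabra4 and Gabrg3 (r = 0.713, rho = 0.55, permutation p = 0.00116 and 0.0129, adjusted p = 0.00696 and 0.0464), with r = 0.493 within groups, 0.463 without MPTP-Veh replicate 4 and 0.448 without the 2 farthest libraries. In the cord, where Gabrd was not tested, the closest pair was Gabra5 and Gabrg1 (r = 0.754, rho = 0.815, permutation p = 0.00021 and 2e-05, adjusted p = 0.00189 and 0.00024), with r = 0.589 within groups and 0.732 without the 2 farthest libraries. The permutations shuffled the 20 libraries of a tissue without regard to group. Genes outside the family had a higher rho with these members than the member pairs did, as given below, so these p-values show no relation particular to the subunits.

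The 3 genes ranked most like Gabra4 over the 20 midbrain libraries were Osbpl3 (rho = 0.986), Gjc1 (0.982) and Zic1 (0.977). Zic1 is a zinc finger gene that is also on the list of cerebellar granule cell markers. The genes most like Gabrd were Rassf3 (0.955), Fzd10 (0.952), a Wnt receptor, and Rasgrp1 (0.94). Those most like Gabra2 were Plagl1 (0.923), Zbtb20 (0.869) and Nrp1 (0.865), and those most like Gabra5 were Slc24a4 (0.94), Ano3 (0.935) and Prdm16os (0.932). For Gabra3 they were Cxxc4, Fstl5 (both 0.925) and Rif1 (0.919), for Gabrg1 Hprt (0.959), AI504432 (0.958) and Cstf2 (0.953), and for Gabrg3 Rhobtb3, Styx (both 0.917) and Sema6d (0.913). These ranks describe the same 20 libraries and were not tested.

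MPTP itself gave no called member in the midbrain. Between MPTP-Veh and Con the edgeR test called 0 of 7 members against 0.018% of all genes, and DESeq2 and limma-voom also called 0. In edgeR 1 member had an unadjusted p below 0.05, as did 23.7% of all genes. Gabra5, the hippocampal alpha subunit, was that member: it stood at 58.3, 94, 50.6 and 61.8 CPM in Con and at 46.2, 27.1, 56.7 and 7.1 CPM in MPTP-Veh (-0.94 ± 0.407, unadjusted p = 0.0324, adjusted p = 0.179). Without MPTP-Veh replicate 4 its difference was -0.61 (adjusted p = 0.416). The summed markers of cortex and hippocampus were 241 to 591 CPM in Con and 123 to 208 CPM in MPTP-Veh, and their part in the Gabra5 values was not tested. Gabra4 differed by -0.74 ± 0.587 (adjusted p = 0.425), and by -0.40 without MPTP-Veh replicate 4 (adjusted p = 0.818). Gabrd differed by -0.60 ± 0.722 (adjusted p = 0.602), and by -0.51 without that library (adjusted p = 0.851). The same change of libraries took Gabra2 from 0.27 to -0.15, Gabra3 from 0.06 to 0.12, Gabrg1 from -0.25 to -0.04 and Gabrg3 from -0.26 to -0.14.

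Between MPTP-SU and Con, edgeR, DESeq2 and limma-voom called 0 of 7 members, against 0.764% of all genes in edgeR, where 1 member had an unadjusted p below 0.05 (16.1% of all genes). Gabra4 differed by 1.28 ± 0.588 (adjusted p = 0.292) and was called in a fit of these 8 libraries alone (1.28, adjusted p = 0.033). Gabrd differed by 1.46 ± 0.704 (adjusted p = 0.317) and Gabra5 by -0.62 ± 0.404 (adjusted p = 0.482). The fit took its spread from all 5 groups, and without MPTP-Veh replicate 4 edgeR again called 0 of 7 members while the share of all genes called was 4.67%. This comparison shares its MPTP-SU libraries with the one against MPTP-Veh.

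Adding either antagonist gave no called member in the midbrain. For MPTP-SU+S against MPTP-SU and for MPTP-SU+T against MPTP-SU, all 3 tools called 0 of 7, and 0% of all genes were called by edgeR. None of the 7 had an unadjusted p below 0.05 in edgeR, against 1.65% of all genes with the CB1 antagonist and 1.7% with the PPARγ inhibitor. Gabra4 was -0.70 ± 0.581 with the CB1 antagonist and -0.43 ± 0.579 with the PPARγ inhibitor. Gabrd was -0.97 ± 0.693 and -0.43 ± 0.683. Each of these differences was within 1.5 SE of 0, so none was detectable against this spread. The test for any difference among the 5 groups called 0 of 7 members at an adjusted p below 0.05, against 7.1% of all genes, and again 0 without MPTP-Veh replicate 4. At an unadjusted p below 0.05 it held 3 of 7, against 27.9% of all genes, and Gabrg3 came closest to a call (adjusted p = 0.0687).

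**Figure D4:**
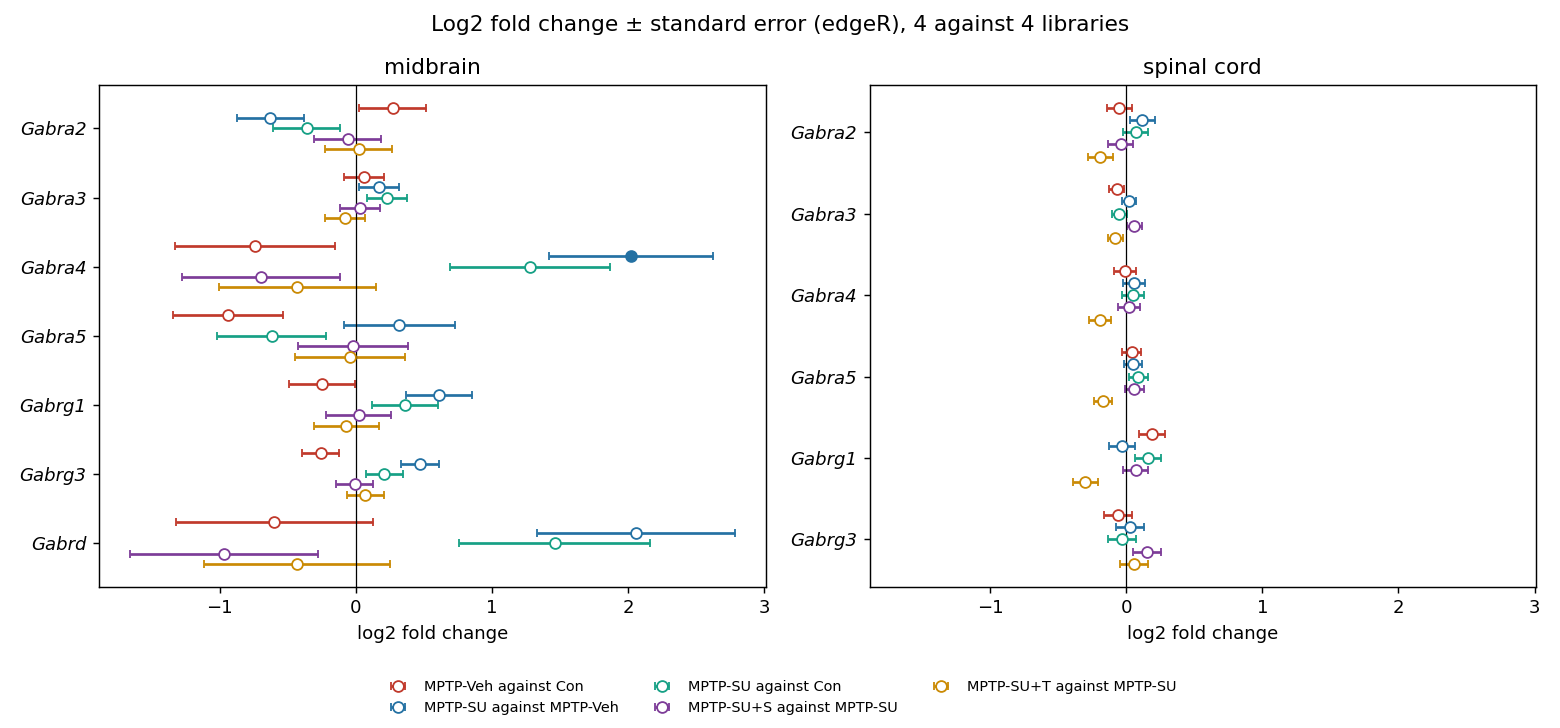
Log2 fold change ± SE of the members tested, for 5 comparisons of 4 against 4 libraries in the midbrain (left) and the spinal cord (right), with a filled point for a call. The 1 filled point is Gabra4 for MPTP-SU against MPTP-Veh in the midbrain (2.02), and every spinal cord value lies between -0.30 and 0.19.

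The spinal cord values were tight and moved little. The SD of Gabra4 within a group was 1.11 to 1.94 CPM around means of 17.7 to 20.6 CPM, against 25.3 to 81.9 CPM around means of 42.1 to 172 CPM in the midbrain. Gabra6 and Gabrd did not pass the filter, which left 6 members. In MPTP-Veh against Con, MPTP-SU against MPTP-Veh, MPTP-SU against Con and MPTP-SU+S against MPTP-SU, edgeR, DESeq2 and limma-voom each called 0 of 6, and edgeR called 0% of all 16682 genes. None of the 6 had an unadjusted p below 0.05 in edgeR, against 12.8%, 3.81%, 9.17% and 5.49% of all genes in the order of these comparisons. Between MPTP-SU and MPTP-Veh the 6 differences ran from -0.03 ± 0.0929 for Gabrg1 to 0.12 ± 0.0908 for Gabra2.

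The PPARγ inhibitor comparison held the lowest p-values in the cord. Between MPTP-SU+T and MPTP-SU, 0 of 6 members were called by any of the 3 tools, with 4 at an unadjusted p below 0.05 in edgeR (12.1% of all genes had such a p and 0.024% were called). Gabrg1, a gamma subunit, stood at 44, 40.9, 44.1 and 45.6 CPM in MPTP-SU and at 31.7, 42.8, 31.8 and 34.4 CPM in MPTP-SU+T (-0.30 ± 0.0941, adjusted p = 0.222). Replicate 2 of MPTP-SU+T lay within the MPTP-SU range and the other 3 below it. Gabra5 stood at 59.2, 57.8, 64.5 and 67.8 CPM in MPTP-SU and at 54.6, 56.6, 53.4 and 56 CPM in MPTP-SU+T, without overlap, as for 7.91% of all genes (-0.17 ± 0.0685, adjusted p = 0.319, exact permutation p = 0.0286). Gabra2 differed by -0.19 ± 0.0909 (adjusted p = 0.413) and Gabra4 by -0.19 ± 0.082 (adjusted p = 0.363). Over the 6 members the median difference was -0.18, with 5 negative, against a median of 0.00683 over all genes. The libraries of these groups also differed in mitochondrially encoded genes. These took 11% to 13.6% of counts in MPTP-SU+T and 15.1% to 16.5% in MPTP-SU, and their part in the member differences was not tested. The test among the 5 groups called 0 of 6, against 0.15% of all genes, with 2 of 6 at an unadjusted p below 0.05, against 16.8% of all genes, and Gabrg1 had the smallest adjusted p (0.139).

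**Figure D5:**
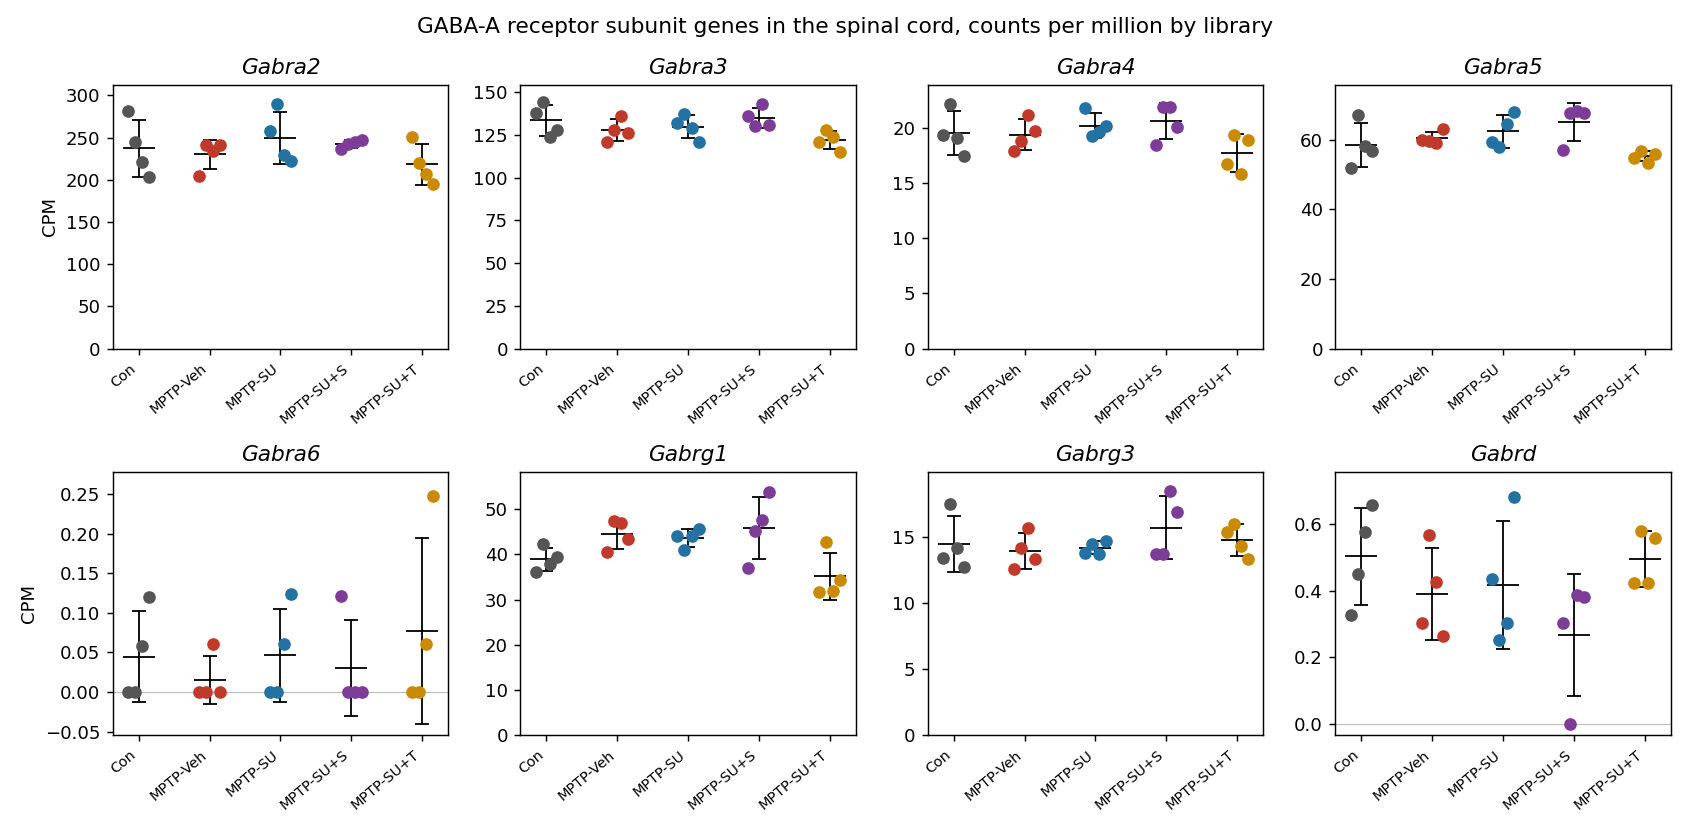
CPM of the 8 subunit genes in the 20 spinal cord libraries by group, with points for libraries and lines for the group mean ± SD. Groups overlap for nearly every gene, Gabra6 stays at or below 0.248 CPM and Gabrd at or below 0.681 CPM, and the MPTP-SU+T points for Gabra5 (53.4 to 56.6 CPM) lie below those of MPTP-SU.

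Whether an effect differed between the tissues was tested directly. For MPTP-SU against MPTP-Veh the Gabra4 difference was 1.96 ± 0.627 larger in the midbrain than in the cord (adjusted p = 0.0314), the 1 call among 7 members against 16.8% of all 17426 genes. The call was lost without midbrain MPTP-Veh replicate 4 (1.63, adjusted p = 0.055), midbrain MPTP-SU replicate 2 (1.81, adjusted p = 0.062) or replicate 3 (1.80, adjusted p = 0.0553), spinal cord MPTP-Veh replicate 3 (1.92, adjusted p = 0.0504) or spinal cord MPTP-SU replicate 2 (1.94, adjusted p = 0.0506). For Gabra2 the difference of effects was -0.74 ± 0.271 (adjusted p = 0.0546). It was -0.31 without midbrain MPTP-Veh replicate 4 (adjusted p = 0.333), and it was called without replicate 1 (-0.86, adjusted p = 0.0273), replicate 2 (-0.92, adjusted p = 0.00985) or replicate 3 (-0.81, adjusted p = 0.0325) of that group. Gabrg1 (0.64 ± 0.268, adjusted p = 0.0867) and Gabrg3 (0.45 ± 0.178, adjusted p = 0.0717) were called in 2 and 3 of 16 fits with a library left out. In this comparison 4 of 7 members had an unadjusted p below 0.05 for the difference of effects, against 34.6% of all genes. For MPTP-Veh against Con edgeR and limma-voom called 0 of 7, against 3.12% of all genes in edgeR. Gabra5 was the 1 member at an unadjusted p below 0.05 (-0.99 ± 0.419, adjusted p = 0.125), against 27.7% of all genes. It was -0.65 without midbrain MPTP-Veh replicate 4 (adjusted p = 0.24) and was called without replicate 3 of that group (-1.32, adjusted p = 0.0233). For the other 3 comparisons both tools called 0 of 7, against 0.379% of all genes in edgeR for MPTP-SU against Con and 0% for each antagonist. None of the 7 had an unadjusted p below 0.05 in edgeR, against 11.6% of all genes for MPTP-SU against Con, 2.18% with the CB1 antagonist and 2.46% with the PPARγ inhibitor.

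The rest of the GABA pathway, from lists of genes chosen for their roles, changed in both directions between MPTP-SU and MPTP-Veh in the midbrain. Among 14 genes of receptor assembly and anchoring 1 rose and 3 fell. Gphn, which encodes the inhibitory synapse scaffold gephyrin, rose by 0.81, Hap1, a trafficking partner of the receptor, fell by 1.59, Lhfpl4, an auxiliary subunit, fell by 1.28 and Gabarap, a receptor-binding trafficking protein, fell by 1.04. Among 9 genes of GABA synthesis, breakdown and transport 0 rose and 1 fell, the transporter Slc6a12 by 1.59. Among 5 GABA-B receptor genes the auxiliary subunit Kctd16 rose by 0.61, and Dbi, an endozepine that binds GABA-A receptors, fell by 0.69 as 1 of 5 neurosteroid and endozepine genes tested. None of the 5 chloride and bicarbonate genes was called. These shares stand beside 13.5% of all genes.

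Most of these calls rested on MPTP-Veh replicate 4. Without it, Hap1 alone among the genes just named was still called (-0.60, adjusted p = 0.0343). Gphn stood at 0.50 (adjusted p = 0.000811), Lhfpl4 at -0.38 (adjusted p = 0.03), Gabarap at -0.38 (adjusted p = 0.00358) and Dbi at -0.48 (adjusted p = 0.000632), all under 1.5-fold, and Kctd16 (0.40) and Slc6a12 (-0.98) missed the adjusted p. Against Con in the midbrain, the assembly gene Shisa7 was called lower in MPTP-SU (-0.59), where 0.764% of all genes were called. Without MPTP-Veh replicate 4, Shisa7 was called in MPTP-SU (-0.59, adjusted p = 0.000547) and in MPTP-Veh (-0.65, adjusted p = 0.0209) against Con. Slc6a12 was then also called in MPTP-SU against Con (-1.37, adjusted p = 0.0339). The shares of all genes then called were 4.67% for MPTP-SU and 0.00594% for MPTP-Veh. In the cord no gene of the pathway lists was called in any of the 5 comparisons.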

How the data were processed

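The deposited values are estimated counts per gene symbol, which the authors made by trimming with fastp, aligning with STAR and quantifying with Salmon (GRCm39, per the submitters' processing notes, tool versions not given in the sources used here) from poly(A)-selected CORALL libraries. The values are whole numbers as deposited. Whether counting used strand is not given, so Gabra4 and the overlapping Gabrb1 may share reads. Results for some other genes of the family are not reported here.

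Counts were filtered (filterByExpr), scaled by TMM and tested with edgeR 4.0.16 (R 4.3.3), quasi-likelihood, 20 libraries per tissue, or 40 together for tissue contrasts. A call needed a Benjamini-Hochberg adjusted p below 0.05 and a fold change above 1.5 (the adjusted p alone for tests among 5 groups and differences of effects). Differences are log2 fold changes as fitted, and CPM uses scaling over all 40 libraries. DESeq2 1.42.0 and limma-voom (limma 3.58.1) were alternatives, beside other scalings, filters and libraries left out. Exact permutation tests were two-sided. Named genes were the 8 members, the called genes of the GABA pathway lists reported here, some marker genes and the 3 genes most alike by rank. Members and lists were chosen with earlier results of these data known. Replicate numbers gave same-number correlations of -0.171 to 0.378 within a tissue and were not treated as pairs. The test was checked on simulated counts with known changes. Lengths came from GENCODE M21, promoters from RefSeq. Counting limits cover counting error only.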

Additional observations from a re-analysis of the deposited data

Results flagged for a closer look

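In midbrain MPTP-Veh replicate 4, 3 members stood far from the other libraries of the group: Gabra6 was high at 5.6 CPM (next 0.459), and Gabrg1 was low at 19.4 CPM (next 42.4), as was Gabrg3 at 10.6 CPM (next 15.9). Gabra5 in spinal cord MPTP-SU+S replicate 1 was low at 57 CPM, with the next library at 67.5. Of 70 groups of 4 libraries checked by gap over range, chance alone would single out about 1 in 20. The Gabra4 effect of MPTP-SU against MPTP-Veh differed between the tissues by 1.96 on the log2 scale (midbrain minus cord), by the test of the difference itself.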

How the results depend on the processing

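No member value changed sign while called. Of 397 counts under other settings 371 were unchanged or within 1.5 times. The count of midbrain members called for MPTP-SU against MPTP-Veh, 1 as reported, was 2 with at least 10 counts in every library, 2 under the replicate block and 2 by the adjusted p alone, 3 with the GC and length trend removed, 4 by DESeq2 and 0 with the 8 libraries alone, and it ran from 0 to 3 with libraries left out. The replicate block changed no other count. MPTP-SU against Con in the midbrain went from 0 to 1 with the 8 libraries alone. The test among 5 groups went from 0 to 1 in the midbrain with the GC and length trend removed and from 0 to 1 in the cord with no filter, where leaving out libraries gave 0 to 2. Differences of effects ran from 0 to 4 for MPTP-SU against MPTP-Veh, where the reported count was 1, and from 0 to 1 for MPTP-Veh against Con. Between the tissues Gabra2 and Gabra4 were called under all 50 settings. Gabrd was left out where at least 10 counts were asked in every library, Gabra6 was added with no filter and Gabrg3 with the GC and length trend removed, so the count of 3 ran from 2 to 4. The causes were not tested. With 4 libraries a group and the midbrain spread, small changes could not be resolved.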

Other observations

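Between the tissues, averaged over the 5 groups, the genes of GABA synthesis and transport that were called were all higher in the midbrain, 4 of 9: Gad1 and Gad2, the enzymes that make GABA, by 1.45 and 1.13 on the log2 scale, and the transporters Slc6a12 by 1.80 and Slc6a13 by 0.85. Of 5 GABA-B receptor genes Gabbr2, a receptor subunit, was 0.61 higher and Kctd16 1.03 higher. Of the chloride genes, Slc12a2, which brings chloride into cells, differed by -0.77 (midbrain minus cord). Of 14 assembly genes Hap1 was 0.71 higher in the midbrain and Iqsec3 differed by -0.88. Among all 17426 genes tested 22% were called between the tissues, 9.8% higher and 12.2% lower in the midbrain.

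In the spinal cord the genes ranked most like Gabra5 over 20 libraries were Slc5a7, the choline transporter of motor neurons (rho = 0.901), and the mitochondrially encoded CYTB (0.893) and ATP6 (0.892). Those most like Gabrg1 were Cstf2 (0.946), Edil3 (0.941) and the microglial gene P2ry12 (0.917), and Cstf2 was also among the 3 most like Gabrg1 in the midbrain.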
